A study of Homo sapiens with 4 samples.

Results

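The Notch pathway was followed through 10 of its genes in human cells at the start of hematopoietic differentiation. They are the receptors NOTCH1, NOTCH2, NOTCH3 and NOTCH4, the ligands DLL1, DLL3, JAG1 and JAG2, and the targets HES1 and HEY1. These members were taken by their gene symbols, and all 10 were found among the 17894 genes of the deposited tables. H1, a human embryonic stem cell line, was differentiated on mAGM-S3, a mouse stromal cell line, and the human cells were sorted at day 2 by the surface antigen TRA-1-85 before RNA-SEQ. The 4 libraries were control cells of wild type genotype, wild type cells given R-spondin2 at 20 ng/mL during the first day, and LGR4-/- clone 1 and LGR4-/- clone 2, for which the labels give no R-spondin2. LGR4 is a receptor for R-spondins, secreted proteins that strengthen WNT signaling. Every group is taken to have met the same differentiation medium and the same stroma, although the paper does not describe the clones. The paper also reports R-spondin2 RNA in mAGM-S3 cells, so that libraries given none may still have met some from the stroma. Each library is 1 sample, the clones are separate lines rather than repeat cultures of a single line, and nothing in the labels ties the control to a second culture.

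Notch signaling passes between touching cells. A Delta (DLL) or Jagged (JAG) ligand on the sending cell binds a NOTCH receptor on the receiving cell, ADAM proteases and then gamma-secretase cut the receptor, and the freed intracellular part enters the nucleus, where it joins the DNA-binding protein RBPJ and the coactivator MAML to switch on genes of the HES and HEY families of repressors. DLL3 is an unusual ligand that does not activate receptors on neighbouring cells and is known to act inside the cell that makes it. In the embryo DLL1 and DLL3 are known for the presomitic mesoderm, where Notch takes part in the clock that sets the pace of somite formation, and NOTCH1 is known for its part in the later emergence of blood stem cells from endothelium.

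Of the members, 7 of 10 have an entry in the RefSeq promoter table used here, and DLL1, DLL3 and HEY1 have none. The letters GTGGGAA, bound by RBPJ, or TTCCCAC on the other strand, occurred in the 250 bases before the start of HES1 and in none of the other 6 members. They occurred in 5.43% of the 35116 promoters of the same length. Of the further target and segmentation genes described later, HES4, HES5, HEY2, HEYL and MSGN1 also hold them. The HES1 promoter is shown with that of HES4, since these are the HES genes that both hold the letters and entered the comparisons. The capitals mark GTGGGAA, which begins 85 bases before the start in HES1 and 77 bases before it in HES4. Both are given 5′ to 3′ on the strand of the gene in the build GRCh38.p14, HES1 from chr3:194135898-194136147 on the plus strand and HES4 from chr1:1000098-1000347 on the minus strand.
HES1: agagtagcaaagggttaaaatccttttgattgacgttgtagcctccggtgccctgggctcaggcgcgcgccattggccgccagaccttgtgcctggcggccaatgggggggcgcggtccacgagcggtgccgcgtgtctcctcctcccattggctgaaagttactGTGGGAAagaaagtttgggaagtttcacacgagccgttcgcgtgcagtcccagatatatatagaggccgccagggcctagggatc
HES4: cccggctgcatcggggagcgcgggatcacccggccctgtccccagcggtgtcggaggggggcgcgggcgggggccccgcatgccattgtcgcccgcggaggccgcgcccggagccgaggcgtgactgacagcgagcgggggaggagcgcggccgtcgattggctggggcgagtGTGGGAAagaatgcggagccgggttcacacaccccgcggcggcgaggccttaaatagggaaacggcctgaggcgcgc
The shorter core TGGGAA, which lies within GTGGGAA, was found in 20.8% of promoters on either strand. Among the 7 members with an entry it was in HES1 alone. The T-box letters AGGTGTGA, found on either strand in 0.786%, were in JAG2 alone among the same 7 members, and DLL1, DLL3 and HEY1 could not be searched. A match describes letters and not a bound site.

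Values are FPKM, fragments scaled for the length of the transcripts and the depth of the library, so that levels of different genes can be set side by side per length. A depth of 8730000 to 8920000 reads per library was implied by the low values, and the reads implied for a gene and their 95% exact (Clopper-Pearson) intervals cover counting error only. Differences are of log2(FPKM + 1), on which low genes appear to differ less than they do, and a gene counts as past 2-fold at a difference of at least 1. Of the 17894 genes, 12697 had a mean of at least 1 FPKM over the libraries and entered the comparisons, among them 8 of the 10 members. NOTCH4 and HEY1 did not. LGR4 itself, targeted in the clones, had 21.77 FPKM in the control, 24.26 with R-spondin2, 7.40 in clone 1 and 13.95 in clone 2, so that its RNA was lower in both clones and was not lost from either.

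The sorted cells held RNA of pluripotent cells and of nascent mesoderm at the same time. The 9 pluripotency markers summed to 1390 FPKM in the control, 1146 with R-spondin2, 2213 in clone 1 and 2071 in clone 2. The 8 markers of the primitive streak and nascent mesoderm summed to 1045, 1368, 377.9 and 584.2 FPKM in the same order. All 9 pluripotency markers were higher and all 8 mesoderm markers lower in both clones than in the control. For the mesoderm marker T (brachyury) the fall in clone 2 was small, from 70.30 to 66.53 FPKM. Its log2 ratio of implied reads of -0.08 had a 95% counting interval of -0.19 to 0.03. These lists thus differed between the same libraries as the members compared here, and their part in the differences of the clones was not tested. In bulk RNA, fewer cells of a type and less RNA per cell cannot be told apart. Markers of other fates were mixed. In the order control, R-spondin2, clone 1 and clone 2, the 7 endoderm markers summed to 71.48, 77.19, 46.47 and 54.04 FPKM. The 7 neuroectoderm markers summed to 154.2, 177.9, 126.3 and 136.3, and the 8 stroma markers to 237.8, 297.4, 216.4 and 247.5. SOX17 was lower in both clones than in the control (47.11 against 23.62 and 27.19) and FOXA2 higher (9.05 against 11.88 and 11.64). LUM was lower (5.49 against 0.16 and 1.45) and COL1A1 higher (63.96 against 74.76 and 74.61). The 8 endothelial markers summed to 38.58 to 42.84 FPKM, mostly from KDR (26.80 to 34.40), while CDH5 was at 0 to 0.05. The 7 blood markers summed to 17.74 FPKM in the control, 18.61 with R-spondin2, 12.36 in clone 1 and 14.00 in clone 2. Among them HBE1 was at 6.76 to 8.85 FPKM, SPI1 at 0.16 to 0.40, and RUNX1 at 3.96, 3.71, 0.61 and 1.29 in the same order, lower in both clones. The 4 neural crest markers summed to 3.44, 2.35, 8.21 and 5.84 FPKM, with FOXD3 at 1.99, 0.92, 6.56 and 4.47. SOX10 did not share this rise, at 1.39, 1.43, 1.54 and 1.37 FPKM, and TFAP2B was listed at 0 in all 4 libraries.

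NOTCH3 was the most abundant receptor in every library and DLL3 by far the most abundant ligand. NOTCH3 made up 56.5% to 61.2% of the summed FPKM of the 4 receptors. DLL3 made up 87.7% of the ligand sum in the control, 90.7% with R-spondin2, 75.1% in clone 1 and 81.4% in clone 2. HES1 gave 96.3% to 98.3% of the sum of both targets. DLL3 led all members in both wild type libraries, and NOTCH3 led in both clones. In the control the order from high to low was DLL3, NOTCH3, HES1, NOTCH1, NOTCH2, JAG1, DLL1, JAG2, HEY1 and NOTCH4.

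**Figure D1:**
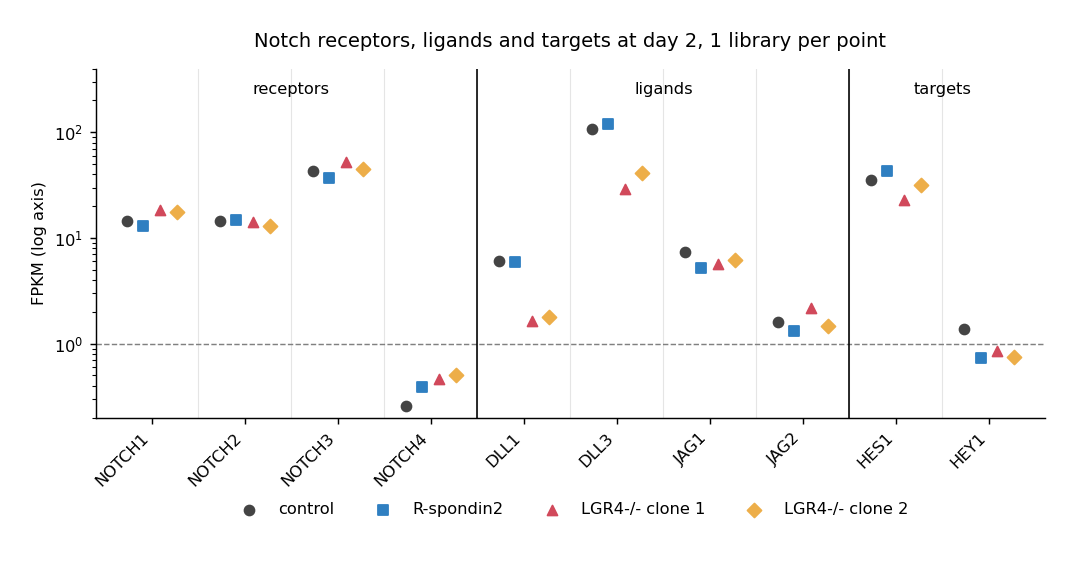
FPKM of the 10 members (vertical log axis) in the 4 libraries, each point 1 library, ordered by receptors, ligands and targets, with a dashed line at 1 FPKM. DLL1 and DLL3 stand lower in both LGR4-/- clones (1.65 and 1.77, and 28.86 and 41.18 FPKM) than in both wild type libraries (6.07 and 5.89, and 106.88 and 120.85 FPKM), while the receptors lie close together.

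Some neighbours in that order cannot be ranked. NOTCH1 and NOTCH2 stood side by side in the control, at 14.51 and 14.35 FPKM, and in the opposite order with R-spondin2, at 12.93 and 14.88. DLL1 (mean 1.71 ± 0.0849 FPKM, SD, n = 2 clones) and JAG2 (1.83 ± 0.495) stood in opposite orders in the clones. In each clone NOTCH3 (48.5 ± 4.80) lay above DLL3 (35.0 ± 8.71), and DLL3 lay above HES1 (27.1 ± 6.26).

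The receptors differed little. NOTCH1, the receptor best known for blood formation, was at 14.51 FPKM in the control, 12.93 with R-spondin2, 18.41 in clone 1 and 17.74 in clone 2. Both clones lay above both wild type libraries, as did 34.4% of all genes tested. The clones differed from each other by only -0.05 on the log2(FPKM + 1) scale. The mean difference of the clones from the control was 0.30 ± 0.11 (SE) by limma, with an adjusted p of 0.242 over the 12697 genes.

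NOTCH3 followed the same pattern at a higher level, at 43.15 FPKM in the control, 36.67 with R-spondin2, 51.87 in clone 1 and 45.08 in clone 2. Both clones were above both wild type libraries, but clone 2 only narrowly so. On the log2(FPKM + 1) scale the mean difference of the clones was 0.16 ± 0.11 (limma, adjusted p = 0.524).

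NOTCH2 was at 14.35, 14.88, 14.01 and 13.02 FPKM in the control, R-spondin2, clone 1 and clone 2, the flattest profile of the receptors that entered the comparisons. Its mean difference in the clones was -0.08 ± 0.12 on the log2(FPKM + 1) scale (limma, adjusted p = 0.764). NOTCH2 shares sequence with the near-identical partial copy NOTCH2NL, listed at 1.84 FPKM in the control, and the counting could have split reads between them.

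NOTCH4, the receptor known from endothelium, was close to the limit of detection at 0.26, 0.39, 0.46 and 0.51 FPKM, or 16, 23, 28 and 30 implied reads. Its 95% counting intervals against the control included 0 for each of the other libraries, so that no difference was detectable at this depth. A part of its exons lies within GPSM3 on the same strand.

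The Delta ligands set the clones apart from the wild type libraries. DLL1, an activating ligand, was at 6.07 FPKM in the control, 5.89 with R-spondin2, 1.65 in clone 1 and 1.77 in clone 2. The wild type libraries were nearly equal to each other, as were the clones. Both clones lay below both wild type libraries, as did 27.6% of all genes tested. DLL1 was thus 3.68-fold lower in clone 1 and 3.43-fold lower in clone 2 than in the control. From 171 implied reads in the control and 47 and 50 in the clones, the log2 ratio of reads was -1.87 (95% counting interval -2.37 to -1.40) in clone 1 and -1.77 (-2.25 to -1.30) in clone 2.

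DLL3 was at 106.88 FPKM in the control, 120.85 with R-spondin2, 28.86 in clone 1 and 41.18 in clone 2. Again both clones were below both wild type libraries, and here clone 1 was the lower of the pair. DLL3 was 3.70-fold lower in clone 1 and 2.60-fold lower in clone 2 than in the control. The log2 ratio of implied reads was -1.89 (95% counting interval -2.03 to -1.75) in clone 1 and -1.38 (-1.50 to -1.25) in clone 2, and clone 2 was above clone 1 by 0.51 (0.35 to 0.68).

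The spread between the clones is the only replicate error these libraries hold. On the log2(FPKM + 1) scale the mean difference of the clones from the control was -1.38 ± 0.16 (SE) for DLL1 and -1.60 ± 0.21 for DLL3, and by limma, which takes the spread from the clones and assumes that the lone control varies as they do, the adjusted p was 0.0755 for DLL1 and 0.0805 for DLL3. Neither passed 0.05, and neither did any other gene: limma called 0 of 12697 genes lower (0.0%) and 0 higher (0.0%), with or without a mean-variance trend, although 2332 genes (18.4%) had an unadjusted p under 0.05. With the clones set against the pair of wild type libraries, which treats the R-spondin2 library as a second control, limma gave an adjusted p of 0.0073 for both genes, in a comparison that called 6.67% of genes lower and 7.99% higher. Over all settings tried, the adjusted p ran from 0.0073 to 0.341 for DLL1 and from 0.0073 to 0.367 for DLL3.

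By size alone, DLL1 and DLL3 were the 2 of the 8 members that were past 2-fold and lower in both clones, against 1.08% of all genes tested (137 of 12697), and 0 members were past 2-fold and higher in both clones, against 0.236%. In clone 1 by itself 2.26% of genes were past 2-fold lower and 1.26% higher, and in clone 2 by itself 1.17% and 0.331%. Ranked from the lowest mean difference of the clones, DLL3 was 54th and DLL1 92nd of the 12697 genes. The median difference over the 8 members was -0.18, and over all genes tested 0.02. The clones share the control, so that an unusual control value would move both of their differences alike. Both clones were below both wild type libraries for DLL1, DLL3, HES1 and NOTCH2 and above them for NOTCH1 and NOTCH3, while 27.6% of all genes tested were below and 34.4% above in this way.

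**Figure D2:**
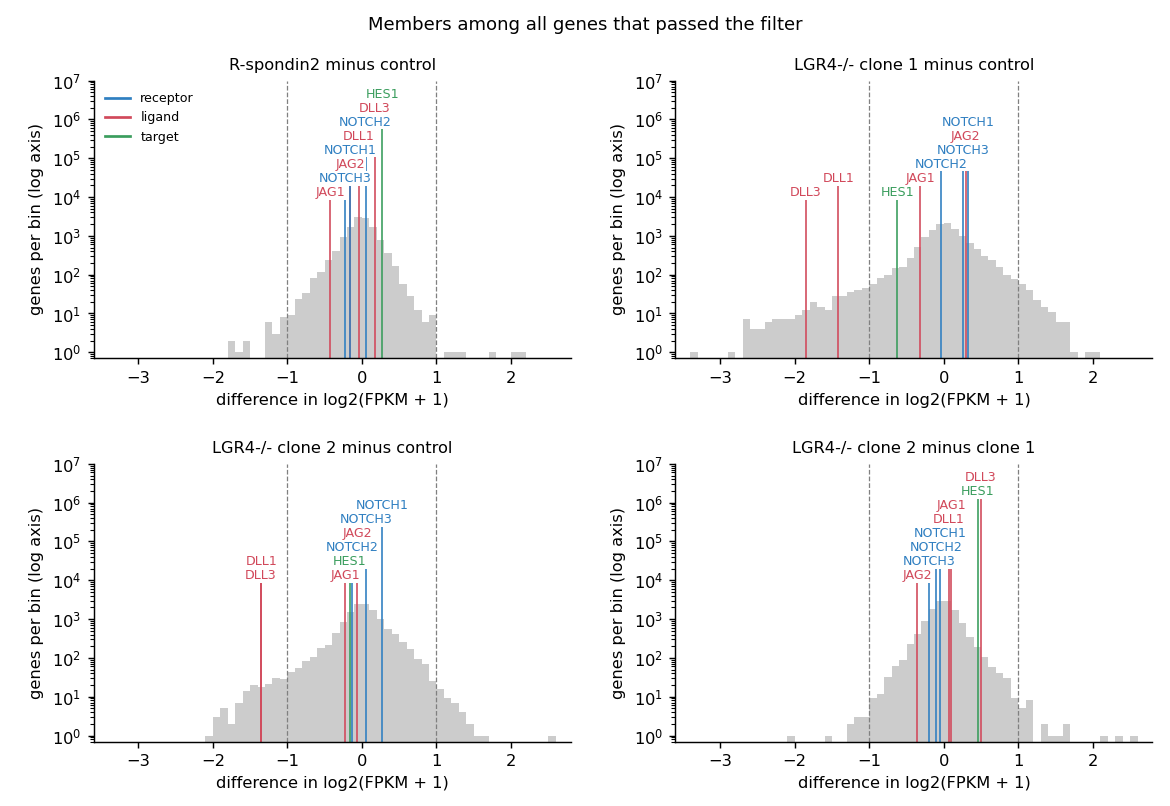
Histograms of the difference in log2(FPKM + 1) over the 12697 genes tested (vertical log axis, genes per bin), with coloured lines at the 8 members that entered the comparisons and dashed lines at 2-fold. DLL1 (-1.42 and -1.35) and DLL3 (-1.85 and -1.35) lie past the dashed line in the panels of LGR4-/- clone 1 and clone 2, and no member does so with R-spondin2 or between the clones.

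The Jagged ligands did not follow the Delta ligands. JAG1, an activating ligand of many tissues, was at 7.38 FPKM in the control, 5.23 with R-spondin2, 5.72 in clone 1 and 6.19 in clone 2. The control was the highest library, and the clones lay between it and the R-spondin2 library. The mean difference of the clones on the log2(FPKM + 1) scale was -0.27 ± 0.14 (limma, adjusted p = 0.392). An annotated antisense transcript overlaps its exons in part, and the library kit does not mark strand.

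JAG2 was low at 1.59, 1.32, 2.18 and 1.48 FPKM, or 81, 66, 111 and 75 implied reads, and its clones lay on both sides of the control. Its mean difference was 0.12 ± 0.22 (limma, adjusted p = 0.830). Another annotated transcript shares part of its exons on the same strand.

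The make-up of the ligands therefore differed between wild type and clone libraries. JAG1 and DLL1 were at similar levels in the wild type libraries, with FPKM ratios of JAG1 to DLL1 of 1.22 in the control and 0.888 with R-spondin2, whereas the ratio was 3.47 in clone 1 and 3.50 in clone 2. DLL3 to DLL1 was 17.6, 20.5, 17.5 and 23.3 in the same order. The summed FPKM of the 4 ligands was 121.92 in the control, 133.29 with R-spondin2, 38.41 in clone 1 and 50.62 in clone 2, against a receptor sum of 72.27, 64.87, 84.75 and 76.35. The ligand sum mostly follows DLL3, which made up 75.1% to 90.7% of it and does not activate receptors on neighbouring cells. It is therefore no measure of activating ligand.

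HES1, the best known target and itself a repressor that oscillates in the presomitic mesoderm, was at 35.40 FPKM in the control, 42.94 with R-spondin2, 22.65 in clone 1 and 31.50 in clone 2. Both clones were below both wild type libraries, clone 2 narrowly, as were 27.6% of all genes tested. The log2 ratio of implied reads was -0.64 (95% counting interval -0.85 to -0.44) in clone 1 and -0.17 (-0.36 to 0.02) in clone 2, and the clones differed from each other by 0.47 (0.26 to 0.69). On the log2(FPKM + 1) scale the mean difference of the clones was -0.39 ± 0.20, which did not pass the test (limma, adjusted p = 0.378). From high to low, HES1, DLL3 and the summed mesoderm markers had the same order of libraries, R-spondin2, control, clone 2 and clone 1. The other members had other orders. For HES1 the places of control and clone 2 are not resolved, given the counting interval of -0.36 to 0.02. The share of all genes with this order was not counted, and a link of HES1 or DLL3 to the mesoderm markers was not tested.

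HEY1, the other target among the members, was at 1.37, 0.73, 0.85 and 0.75 FPKM in the control, R-spondin2, clone 1 and clone 2, or 16, 8, 10 and 9 implied reads. The control was the highest, yet every 95% counting interval against it included 0.

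**Figure D3:**
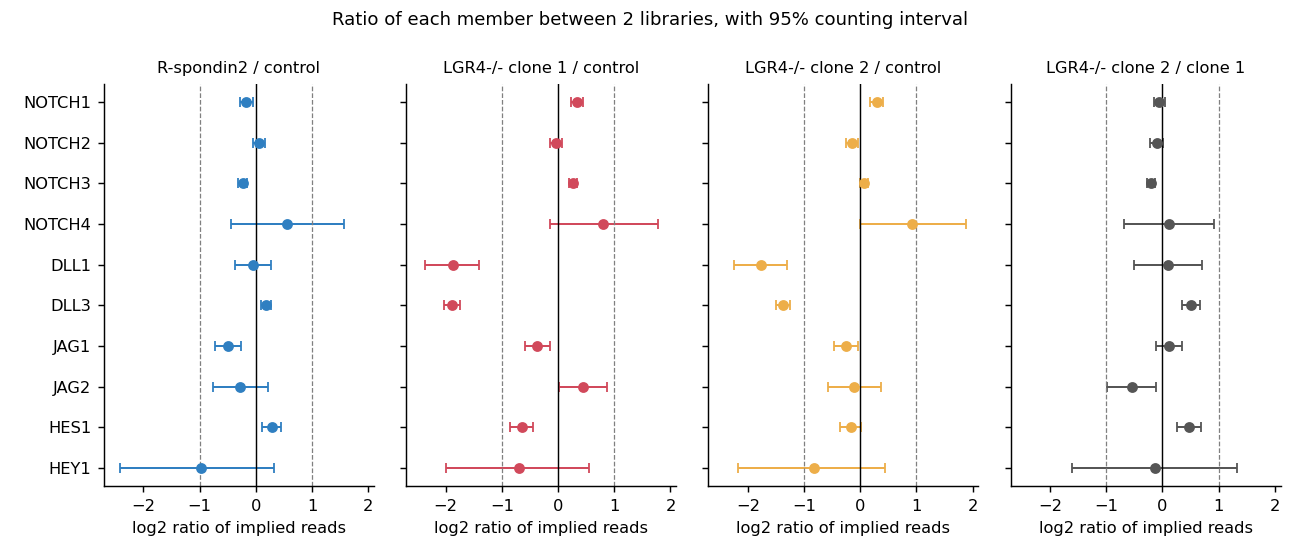
Log2 ratio of implied reads (horizontal axis) of each member between the libraries named above each panel, with 95% counting intervals as bars, a solid line at 0 and dashed lines at 2-fold. The intervals of DLL1 and DLL3 lie wholly below -1 in both clones against the control, while those of NOTCH4 and HEY1 are wide and include 0 in every panel.

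R-spondin2 left every member within 2-fold of the control. Of the 8 members tested, 0 were past 2-fold higher and 0 lower, as were 0.0473% and 0.173% of all genes, and these are comparisons of 1 library with 1 library that have no test. The furthest were JAG1, with a difference of -0.43 on the log2(FPKM + 1) scale, and HES1, with 0.27. Over all genes tested the SD of this difference was 0.21. For JAG1 the log2 ratio of implied reads was -0.50 (95% counting interval -0.73 to -0.27), from 389 reads in the control and 271 with R-spondin2, and for HES1 it was 0.28 (0.11 to 0.46), from 495 and 592 reads.

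Among the other members, NOTCH3 had a log2 ratio of reads of -0.23 (-0.31 to -0.16), NOTCH1 -0.17 (-0.29 to -0.05) and DLL3 0.18 (0.09 to 0.27) with R-spondin2. For DLL1 it was -0.05 (-0.36 to 0.27), so that no difference was detectable at this depth. Set beside the clones, whose differences use the same control library, DLL3 was at 0.18 with R-spondin2 and at -1.85 and -1.35 in the clones on the log2(FPKM + 1) scale, and NOTCH1 at -0.16 and at 0.32 and 0.27. Opposite directions were not shared by all members. JAG1 was at -0.43 with R-spondin2 and at -0.32 and -0.22 in the clones.

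Between the clones, 0 of the 8 members tested were past 2-fold in either direction, while 0.173% of all genes were higher and 0.0788% lower in clone 2. The furthest apart were DLL3 (0.50) and HES1 (0.46), both higher in clone 2, and JAG2 (-0.36), on the log2(FPKM + 1) scale. The SD over all genes was 0.22. LGR4 was at 7.40 FPKM in clone 1 and 13.95 in clone 2, and the summed mesoderm markers at 377.9 and 584.2, so that the lower clone was the same for LGR4, the mesoderm markers, DLL3 and HES1. The part of either in the differences between the clones was not tested.

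The rest of the pathway was read from 8 lists of 95 further genes, of which 93 were in the tables and 76 entered the comparisons. Under limma 0 of these 76 passed an adjusted p of 0.05, and 21 had an unadjusted p under 0.05. By size, 1 was past 2-fold higher and 5 lower in both clones, against 0.236% and 1.08% of all genes tested, and the median difference of the clones was 0.01 against 0.02 over all genes. With R-spondin2, 1 was past 2-fold lower and 0 higher, against 0.173% and 0.0473% of all genes tested.

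The machinery between ligand and nucleus stayed within 2-fold on the log2(FPKM + 1) scale in every comparison. This held for the 3 tested of 9 other ligands and ligand-like genes, 7 of 8 fringe and O-glycosylation genes, all 9 genes of receptor cleavage and gamma-secretase, 6 of 8 genes of ligand ubiquitination and endocytosis, all 11 of receptor turnover and 19 of 22 of the nuclear complex and its corepressors. Their median differences in the clones lay between -0.20 for the fringe list and 0.10 for the other ligands. Of all genes tested, no more than 2.26% were past 2-fold in either direction of any comparison. Staying within 2-fold thus does not set these genes apart. As ratios of FPKM, 3 of the low genes tested were past 2-fold. These were NEURL1B at 2.26 and DTX1 at 2.17 in clone 1 against the control, and GXYLT2 at 2.09 in clone 2 against clone 1. Genes below the filter were left out of this, and some of them were past 2-fold as ratios in either direction. DNER was at 0.10 FPKM in the control, 0.38 with R-spondin2, 0.85 in clone 1 and 0.76 in clone 2, from 3, 11, 25 and 22 implied reads. NEURL1 was at 0.33, 0.26, 0.23 and 0.05 FPKM in the same order, from 13, 10, 9 and 2 reads. DLL4, the activating ligand of endothelium, was nearly absent at 0 to 0.07 FPKM.

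RBPJ, the DNA-binding partner of the cut receptor, was at 19.05 FPKM in the control, 15.74 with R-spondin2, 27.25 in clone 1 and 24.14 in clone 2. Its mean difference in the clones was 0.41 ± 0.12 on the log2(FPKM + 1) scale (limma, adjusted p = 0.167). The corepressors TLE3 and TLE2 differed in opposite directions, with mean differences of -0.55 and 0.47 (limma, adjusted p = 0.0968 and 0.227), and MAML3, a coactivator, was at -0.32.

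The other extremes of these lists by the mean of the clones were as follows. EGFL7, a secreted protein of endothelium, was at 0.29, the microfibril gene MFAP2 at 0.10, and the ligand-like DLK2 at -0.18. LFNG, a fringe glycosyltransferase that modifies receptors, was at 0.31 and RFNG at 0.16, with XXYLT1 at -0.32 and POFUT1, which adds the fucose that fringe extends, at -0.28. In the cleavage list FURIN was at -0.38, NCSTN at -0.21, PSEN2 at 0.13 and PSENEN at 0.12. The ubiquitin ligase NEURL1B was at 0.54, EPN1 at 0.04, DNM2 at -0.08 and MIB2 at -0.07, and among the genes of receptor turnover DTX1 and DTX2 were at 0.58 and 0.48, ITCH at -0.16 and NUMB at -0.05. All of these missed the adjusted threshold, with limma adjusted p of at least 0.135.

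The other HES genes differed in both directions in the clones. Of 17 further HES, HEY and target genes 13 entered the comparisons. In both clones 1 of them was past 2-fold higher and 2 lower, against 0.236% and 1.08% of all genes tested. HES3 was at 5.15 FPKM in the control, 0.85 with R-spondin2, 19.92 in clone 1 and 13.14 in clone 2, and so it was the gene of the pathway past 2-fold lower with R-spondin2 and the gene past 2-fold higher in both clones. Its mean difference in the clones was 1.48 ± 0.25 on the log2(FPKM + 1) scale (limma, adjusted p = 0.0899), from 32, 5, 124 and 81 implied reads. With R-spondin2 the log2 ratio of its reads to the control was -2.66 (95% counting interval -4.37 to -1.28). HES6, known as an opponent of HES1, was at 19.10, 15.25, 26.94 and 28.73 FPKM, and its mean difference was 0.52 ± 0.10 (limma, adjusted p = 0.101).

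HES4 and HES7 stood on the other side. HES4 was at 5.22 FPKM in the control, 4.99 with R-spondin2, 2.32 in clone 1 and 1.20 in clone 2, with a mean difference of -1.20 ± 0.28 (limma, adjusted p = 0.121). On the log2(FPKM + 1) scale HES4 was past 2-fold in clone 2 and in the mean, and as a ratio of FPKM in both clones. The genes that hold GTGGGAA and entered the comparisons did not share a direction: HES1, HES4 and MSGN1 were lower and HEY2 higher in both clones than in the control. HES7, a repressor of the segmentation clock, was at 2.64, 1.90, 0.27 and 0.27 FPKM, the last of these from about 2 reads in each clone, so that the log2 ratio of implied reads of -3.01 in clone 1 had a 95% counting interval of -6.17 to -0.92.

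NRARP, a target that feeds back on the receptor complex, went against HES1. It was at 8.22 FPKM in the control, 6.54 with R-spondin2, 15.81 in clone 1 and 13.22 in clone 2. Both clones were thus above both wild type libraries, as were 34.4% of all genes tested. The mean difference of NRARP in the clones was 0.75 ± 0.15 on the log2(FPKM + 1) scale (limma, adjusted p = 0.102). HEY2, a relative of HEY1, was at 5.21, 6.16, 6.79 and 7.31 FPKM, a mean difference of 0.37 ± 0.14 (limma, adjusted p = 0.253).

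GATA3, a transcription factor, was at 1.81, 1.90, 0.18 and 0.37 FPKM, past 2-fold lower in both clones on the log2(FPKM + 1) scale (mean -1.14 ± 0.21, limma, adjusted p = 0.0942), although its reads in the clones were only 4 and 9. BHLHE40, a bHLH repressor, was at 10.92, 17.78, 4.43 and 8.65 FPKM and past 2-fold lower in clone 1 alone. HES5, the classic target of neural progenitors, was at 0.09 to 0.18 FPKM.

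Of the 8 lists, that of the segmentation clock and presomitic mesoderm had the lowest median difference in the clones, -1.19 for their mean. Of the 11 on the list 8 entered the comparisons. In both clones 3 of them were past 2-fold lower and 0 higher, against 1.08% and 0.236% of all genes tested. Their median difference was -1.48 in clone 1 and -0.90 in clone 2, against 0.02 over all genes tested in each, and 0.11 with R-spondin2 against -0.01. MESP1, TBX6 and MSGN1 of this list are also among the mesoderm markers summed above. The list was chosen with earlier results of these data known, so that its counts and medians describe these genes and test nothing.

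MESP2, a factor that sets somite borders together with Notch, was at 12.52 FPKM in the control, 13.65 with R-spondin2, 2.02 in clone 1 and 3.25 in clone 2. Its mean difference in the clones was -1.92 ± 0.23 on the log2(FPKM + 1) scale (limma, adjusted p = 0.0755). MESP1, its neighbour and relative that marks early cardiac and other mesoderm, was at 38.45, 57.26, 5.64 and 13.39 FPKM, with a mean of -2.01 ± 0.44 (adjusted p = 0.113), and was the gene of the pathway past 2-fold higher in clone 2 than in clone 1 on that scale. SNAI2, a factor of epithelial-mesenchymal transition, was at 9.57, 9.78, 1.48 and 3.27 FPKM, with a mean of -1.70 ± 0.33 (adjusted p = 0.101).

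The mesoderm factors TBX6 and MSGN1, the former known to bind the DLL1 gene in the embryo, were lower as well. TBX6 was at 26.68, 31.17, 10.22 and 14.84 FPKM in the control, R-spondin2, clone 1 and clone 2 (mean -1.05 ± 0.22, limma, adjusted p = 0.104), and MSGN1 at 6.64, 7.23, 1.41 and 2.86 (mean -1.32 ± 0.30, limma, adjusted p = 0.119). RIPPLY2, which opposes MESP2, was below the filter at 1.72, 1.24, 0.34 and 0.17 FPKM. DUSP6, a phosphatase of the FGF pathway, lay on the other side at 15.72, 17.54, 20.55 and 25.06 FPKM (mean 0.50 ± 0.15, limma, adjusted p = 0.171), and AXIN2, a WNT target that cycles with the clock, was at 20.16, 19.30, 17.64 and 20.79 FPKM.

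**Figure D4:**
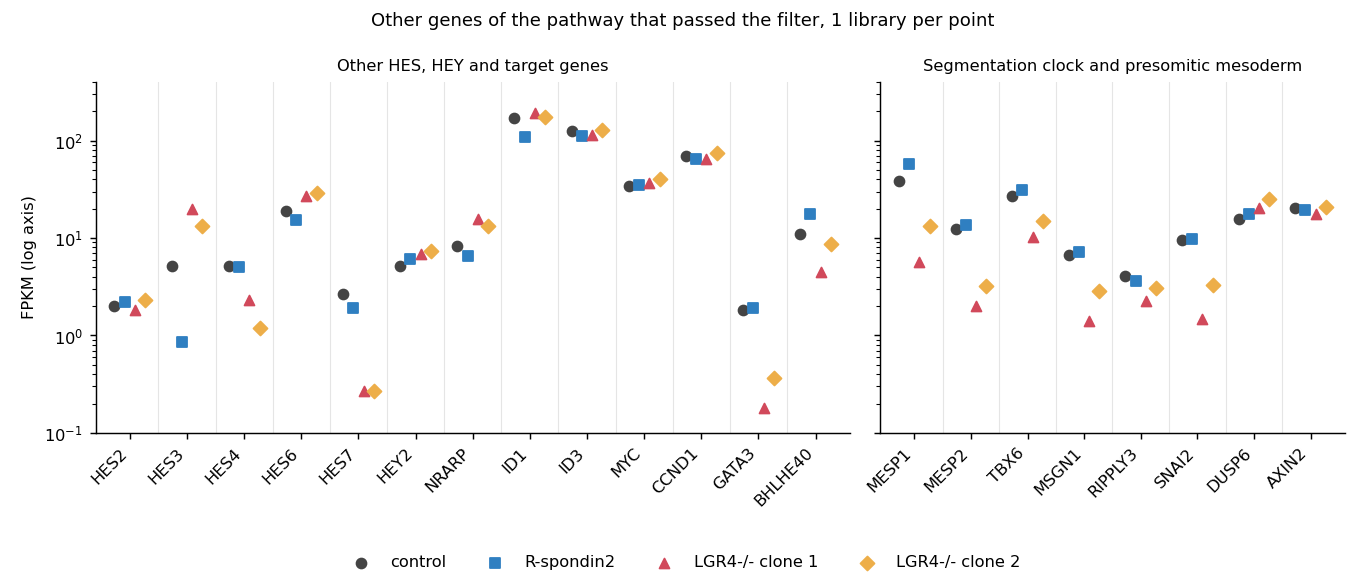
FPKM (vertical log axis) of the 13 other HES, HEY and target genes and the 8 segmentation clock and presomitic mesoderm genes that entered the comparisons, each point 1 library. HES4, HES7, MESP2 and SNAI2 are lower in both LGR4-/- clones than in both wild type libraries, HES3, HES6 and NRARP are higher in both, and HES3 is lowest with R-spondin2 (0.85 FPKM). Of all genes tested, 27.6% were lower and 34.4% higher in this way.

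DLL1 and DLL3 were the members whose log2(FPKM + 1) varied by at least 1 over the libraries, and the genes with the most similar profile were found by the distance between profiles centred on their mean over the 4 libraries. Nearest to DLL3 were FOXC1, a factor of paraxial mesoderm, PSKH2, NRG2, ACKR3 and UNC5C, at distances of 0.04 to 0.09. FOXC1 was at 11.79 FPKM in the control, 13.05 with R-spondin2, 2.54 in clone 1 and 4.03 in clone 2. Among the nearest to DLL1 were PCDH17, IGFBP5, TMEM150C and SLC16A3, at distances of 0.11 to 0.20, and PCDH17 was at 3.32, 3.35, 0.65 and 0.88 FPKM. With 4 libraries such likeness is a description only.

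In the annotation deposited with the values, the members shared the process term cell fate commitment, carried by 8 of the 10 members and by 39 of all 17894 genes. The members without it were DLL3 and HEY1. DLL1 alone among the members carried the term somitogenesis, held by 10 genes in all, and DLL3 alone the term mesoderm development, held by 4. This annotation is sparse, since the term Notch signaling pathway was held by 5 genes in all and by NOTCH1 alone of the members. A missing term therefore says little about a gene.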

How the data were processed

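RNA-SEQ of 4 libraries was analysed: 1 control, 1 R-spondin2 and 1 from each of 2 LGR4-/- clones, grouped by the labels of genotype and treatment. The authors deposited FPKM values, given to 2 decimals for 17894 genes with RefSeq transcripts, and no counts were used. The submitters' processing notes name BWA, Bowtie, RSEM and hg19 without their roles. The library kit does not mark strand.

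FPKM were compared as log2(FPKM + 1) where the mean over libraries reached 1 FPKM, in 12697 genes. limma 3.58.1 in R 4.3.3 was fitted with a mean-variance trend to 3 groups (control, R-spondin2 and LGR4-/-), so that the spread came from the 2 clones with 1 residual degree of freedom and a prior of 4.05, and p-values were adjusted by Benjamini-Hochberg over all genes tested. Such p-values measure only the spread between these samples. The limma step was tested on simulated data. R-spondin2 against control and clone 2 against clone 1 are 1 library each and have no test.

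To estimate depth, read totals were searched for the value that turned low FPKM (under 0.6, transcripts below 1500 bases) most nearly into whole reads, among 8068 genes with 1 transcript of known length in GENCODE. With totals of 8870000, 8730000, 8920000 and 8820000 reads (control, R-spondin2, clone 1, clone 2), the share of low values no more than 0.2 from a whole read was 76.3% to 79.1%, against 38.7% to 43.3% with lengths shuffled among genes. Reads of a gene were implied with its shortest transcript. The depth is thus an estimate and not a deposited value.

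All 10 members were named, and of each list of further pathway genes those past 2-fold in any comparison and the 2 highest and 2 lowest by the mean of the clones. HEY2, HES5, HES6, DLL4, RIPPLY2, AXIN2 and the receptor copy NOTCH2NL were named for their roles where this rule did not reach them. GXYLT2, DNER and NEURL1 were named after their values were seen. NEURL and HELT were not matched by symbol, and 1 of the 5 genes most like DLL1 is not reported here. The members, lists and markers were chosen with earlier results of these data known. Promoters were taken from RefSeq (GRCh38.p14). Alternatives were a pseudocount of 0.1, no filter, a filter at 5 FPKM, rescaling by the median ratio, 1.5-fold, each clone left out, limma without the trend and the 2 clones against both wild type libraries. Python 3.11.15, numpy 2.4.6, scipy 1.17.1, pandas 2.3.3 and matplotlib 3.10.9 were used.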

Additional observations from a re-analysis of the deposited data

How the results depend on the processing

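No paired analysis was possible, since the control is 1 library and the labels do not pair it with either clone. The 8 members kept the direction of their mean difference between the clones and the control under every alternative, except JAG2, at 0.12 with both clones and at -0.06 without clone 1. Of members lower past 2-fold in both clones, the count of 2 became 1 with a filter at 5 FPKM, which removed DLL1. At an adjusted p under 0.05 limma called 0 members, but with the filter at 5 FPKM 1 lower (DLL3, adjusted p = 0.0133), after rescaling 2 lower (DLL1 and DLL3, adjusted p = 0.0483 each) and with the 2 clones against both wild type libraries 2 lower and 1 higher (NOTCH1, adjusted p = 0.0403). The same 3 settings took the calls over all genes from 0 to 230 higher and 267 lower, 38 and 50, and 1015 and 847.
Counts over all genes depended on the pseudocount, the filter and the fold. With R-spondin2, 6 higher and 22 lower genes became 32 and 107 with a pseudocount of 0.1, 68 and 186 at 1.5-fold and 0 and 14 with the filter at 5 FPKM, and the 6 became 12 without a filter. In both clones, 30 higher and 137 lower became 115 and 230 with the pseudocount of 0.1 and 332 and 392 at 1.5-fold, and the 30 became 18 with the filter at 5 FPKM. Leaving out a clone gave 42 to 160 higher and 149 to 287 lower genes, the larger counts without clone 2, and 2 members lower either way. Between the clones, 22 higher and 10 lower became 92 and 49, 171 and 135, and 10 and 2 under the same 3 settings. With 1 control library and 2 clones, differences of genes as low as NOTCH4 and HEY1 could not be resolved.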
